A study of Gallus gallus with 13 samples.

Results

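Short late-replicating intervals were places on chromosome 1 of the chicken B-cell line DT40 where the last of 4 S-phase fractions, S4, carried the highest signal over less than 1 Mb. They were chosen by the nascent-strand signal of the unmodified cells (Wt). The 1st percentile of each Wt fraction was subtracted from it, negative values were raised to 0, and the profile was divided by its mean and averaged over 20 kb windows, and the fraction with the highest value was called the leader of the window. Consecutive windows with the same leader formed a run. Of 9787 windows with a leader, 4119 were led by S4, and 1765 of these (42.9% of the S4-led windows, 18.0% of all) lay in 129 runs shorter than 1 Mb. These runs, called short intervals here, covered 35.3 Mb. The other 2354 S4-led windows lay in 28 runs of 1 Mb or more, called long S4 runs. The Wt values fixed the membership and are given as a description, without a test.

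Vertebrate chromosomes replicate in a fixed order through S phase. Active, gene-dense DNA generally replicates early, and compact, gene-poor DNA at the nuclear periphery generally replicates late. Between an early and a late domain, timing usually shifts gradually along the DNA through the intermediate fractions, and a late stretch between neighbouring early domains appears as a valley in a timing profile. Repli-seq measures this order by sequencing DNA labelled with a nucleotide analogue in cells sorted by DNA content, so that the fraction in which a locus is enriched gives its time of replication.

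DT40 cells derive from a bursal lymphoma, and the study asked how inserted regulatory elements change the replication timing of a mid-late region of chromosome 1. The groups used here were Wt and a modified DT40 line that is 1 clone, homozygous for an insertion on both alleles. The labels give the genotype of that clone as 2x (betaA-globin+ beta-actin), elements of a globin and an actin gene. Cells of both lines took up BrdU over 1 h and were sorted by DNA content, from S1 (earliest) to S4 (latest), with 1 library for each fraction and line, so 8 libraries were compared. There was no replicate library, no error between replicates could be given, and no test was possible. Any difference between Wt and the clone includes the difference between 2 cultures and 2 library preparations. The read depth is unknown, because the deposited profiles are scores in SD units with mean 0 and SD 1 over chromosome 1.

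The intervals ranged from 20 kb to 980 kb, with a median of 180 kb and quartiles of 60 and 420 kb. Most intervals were small, but most of the late DNA was in the larger ones. The 39 intervals of 60 kb or less included 8 of a single window, whereas the 27 intervals of 500 kb or more held 934 windows, 52.9% of the total. They were unevenly placed: 44 of the 129 began between 140 and 160 Mb, another 17 between 160 and 180 Mb, and between 5 and 14 in each of the other 20 Mb bins that were complete. Joining intervals that lay at most 200 kb apart gave 69 groups. Of these, 51 held 1 interval and 4 held 5 or more, and these 4 groups together held 40 intervals.

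The leader of the window beside each end divided the intervals into 2 main kinds. S3, the fraction just before S4, led on both sides of 56 intervals (43.4%), which held 1052 windows and had a median length of 340 kb. S1, the earliest fraction, led on both sides of 43 intervals (33.3%), which held 278 windows and had a median length of 80 kb. A further 20 intervals had S1 on one side and S3 on the other, and 10 had another pair. Among the 28 long S4 runs, 23 had S3 on both sides and 0 had S1 on both sides. The first kind was spread over the chromosome, with 3 of its 56 intervals between 146 and 166 Mb. Of the 43 intervals with S1 on both sides, 40 lay in that one stretch, the 20 Mb that held the most of them, where 503 of 1000 windows (50.3%) belonged to short intervals.

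On average, the S3-framed intervals had the form of a valley. Their S3-led flanks had a median length of 120 kb. Beyond the flank S2 led at 85 of 112 sides, S4 led again at 26 and S1 led at 1, so most sides passed on to the next earlier fraction and 26 lay beside another late stretch. In the 37 such intervals of up to 480 kb, the mean Wt share of S4 was 49.0% at the centre and had fallen to 27.2% and 27.0% at 200 kb to the left and right. The share of a fraction is its percent of the scaled signal summed over the 4 fractions. Over the same distance the S3 share was 31.8% at the centre against 37.3% and 35.7%, and by 500 kb the S1 share had reached 30.8% and 27.6% from 6.77% at the centre. The clone, whose libraries played no part in the choice, showed the same course. Its S4 share was 49.2% at the centre and 27.6% and 27.0% at 200 kb, and its S1 share was 6.75% at the centre and 30.1% and 27.8% at 500 kb.

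The S1-framed intervals had no such gradient. Their S1-led flanks had a median length of 60 kb. Beyond them S4 led again at 84 of 86 sides and S2 at 2, so the earliest and the latest fraction alternated as leader. In the 42 intervals of up to 480 kb, the mean Wt share of S4 was 47.7% at the centre and between 36.2% and 43.5% at every distance from 60 to 500 kb, and the S1 share was 25.9% at the centre against 30.9% to 40.7% around it. That central peak is what the choice of the intervals required in Wt. It was not seen in the clone, where the S4 share at the same centres was 48.2% and lay between 44.7% and 51.5% around them. The clone's S1 share was 27.8% at the centres and between 23.5% and 30.6% around them.

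**Figure D1:**
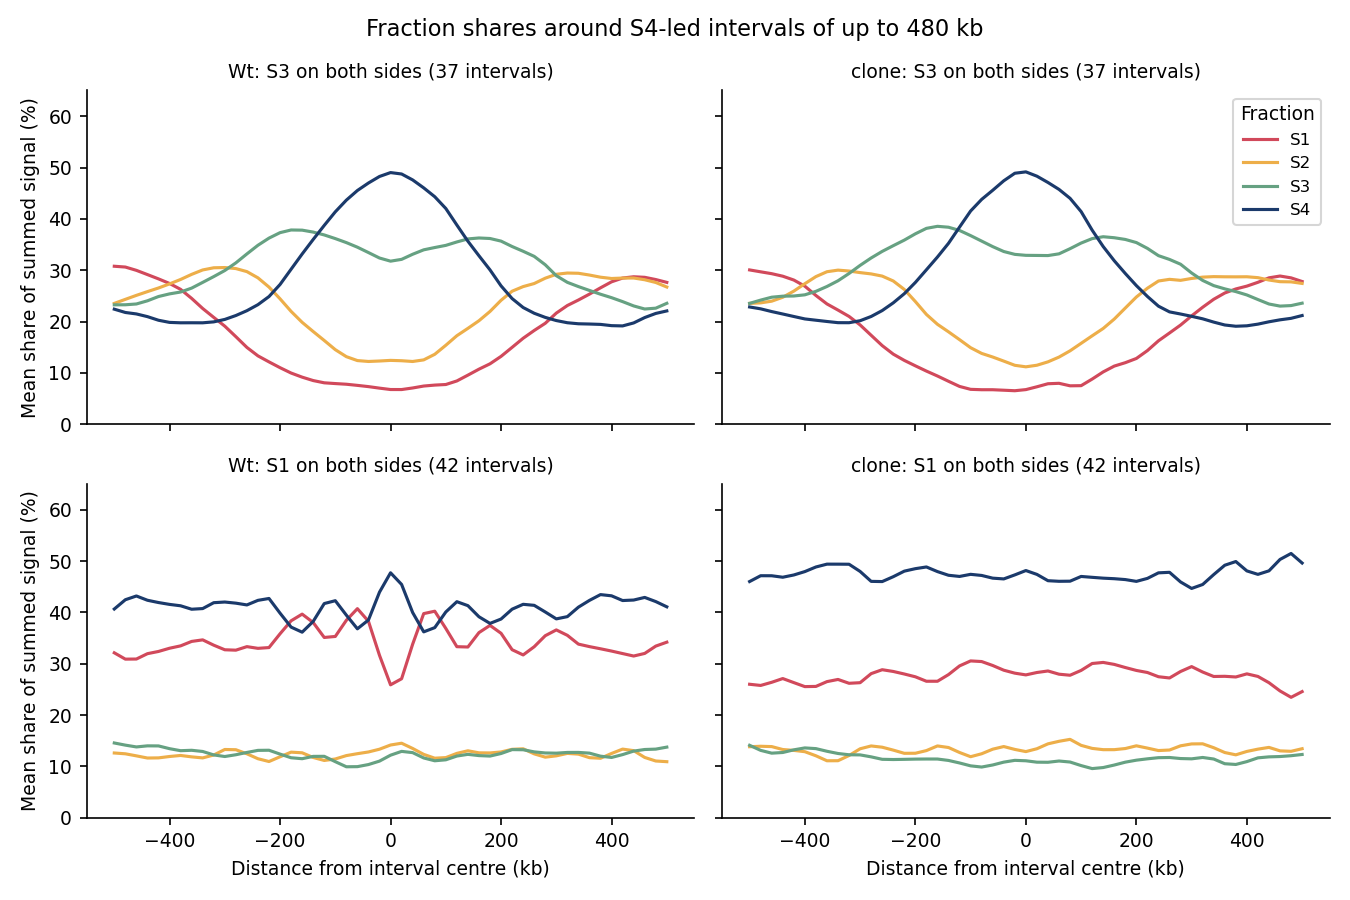
Mean share of the summed scaled signal (%, vertical axis) of fractions S1 to S4 against the distance from the interval centre (kb, horizontal axis), in Wt (left) and the clone (right), for 37 S3-framed (top) and 42 S1-framed (bottom) intervals of up to 480 kb. The S4 peak of the S3-framed intervals is at 49.0% in Wt and 49.2% in the clone, while the S4 line of the S1-framed intervals peaks at 47.7% in Wt and is flat in the clone.

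The 2 kinds also differed in how much signal they held. The scaled signal summed over the 4 fractions had a median of 3.66 in Wt and 3.57 in the clone over S3-framed windows, and of 1.57 and 1.62 over S1-framed windows, against 4.14 and 4.03 over all windows. Of the S1-framed windows, 53.2% were among the 10% of windows of the chromosome with the lowest summed signal in Wt, compared with 1.71% of the S3-framed windows. Low signal was also common in the long S4 runs, where the median was 2.19 in Wt and 26.6% of windows were in the lowest 10%.

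The deposited values show what an S4 lead meant in each kind. In S3-framed windows the median Wt values of S1, S2, S3 and S4 were -0.71, -0.78, 0.06 and 1.34 SD, and those of the clone were -0.67, -0.77, 0.05 and 1.19 SD. S4 was thus above its own chromosome mean, S3 near it, and the early fractions below it in both lines. In S1-framed windows the Wt medians were -0.55, -0.84, -0.92 and -0.40 SD and the clone medians -0.49, -0.83, -0.97 and -0.36 SD. The median of every fraction was below its chromosome mean there, S4 included. The same was true of the windows that S1 led in Wt between 146 and 166 Mb, where most of these intervals lay. Their medians of S1 to S4 were -0.11, -0.80, -0.92 and -0.61 SD in Wt and -0.35, -0.80, -0.90 and -0.40 SD in the clone. On the rest of the chromosome, S1-led windows had a Wt S1 median of 1.49 SD. The part that this low signal plays in the order of the fractions was not tested.

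**Figure D2:**
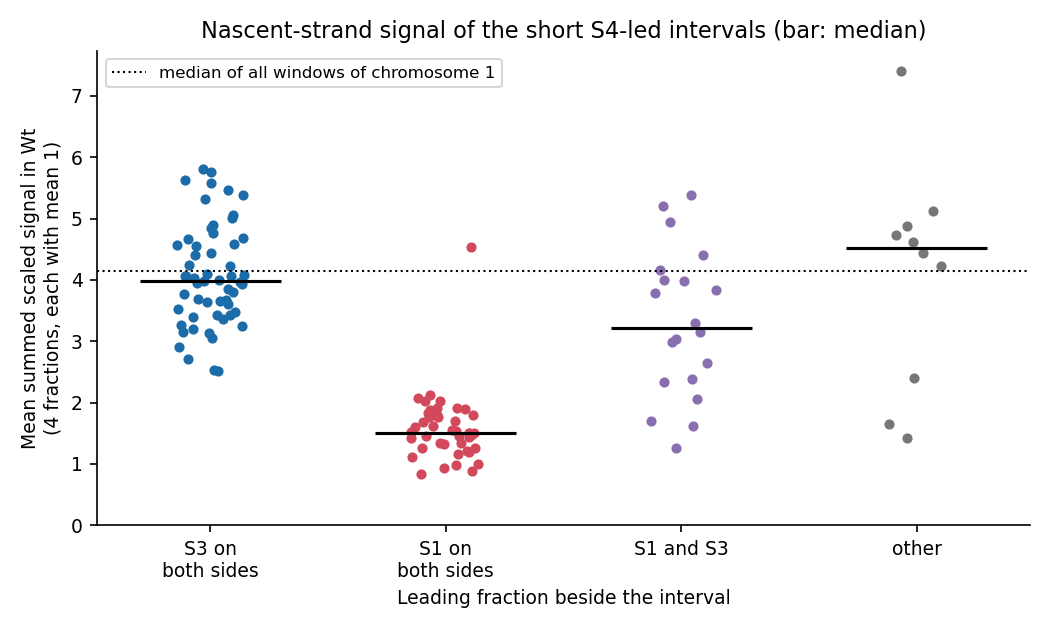
Scaled Wt signal summed over S1 to S4 (vertical axis, each fraction scaled to a mean of 1) for each of the 129 intervals, grouped by the leading fraction beside them; each point is 1 interval, bars are medians over intervals and the dotted line is the median of all windows, 4.14. The S1-framed intervals lie below the line with 1 exception, and the S3-framed intervals lie on both sides of it.

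The share of S4 varied with length in the S3-framed intervals. Their median Wt shares over windows were 36.5% in intervals of 20 to 60 kb, 43.5% at 80 to 200 kb, 50.4% at 220 to 480 kb and 63.3% at 500 to 980 kb. The clone gave 34.4%, 43.4%, 50.4% and 62.9% in the same windows. Longer valleys were deeper in both lines, and at 500 to 980 kb their S4 share was above that of all long S4 runs in Wt (58.6%) and the clone (61.8%). Over short intervals of 500 to 980 kb of every framing it was 61.8% in Wt and 61.5% in the clone, above the long S4 runs only in Wt. In the S1-framed intervals the corresponding Wt shares of 42.6%, 45.8%, 44.8% and 47.4% covered a narrower range, with 1 interval in the last class. Their clone shares were 47.3%, 48.2%, 43.0% and 55.2%, with no steady rise. Over intervals, Spearman's rho between length and S4 share was 0.87 in Wt and 0.86 in the clone for the 56 S3-framed intervals, and 0.29 and 0.11 for the 43 S1-framed ones. Length and Wt share both come from the values that chose the intervals. Over all short intervals, the first and last windows had a median Wt S4 share of 40.8%, against 56.4% for inner windows. End windows make up more of a short interval, so a Wt share that rises with length is partly built into the choice. Neighbouring intervals also share libraries and signal level, so these are descriptions only.

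**Figure D3:**
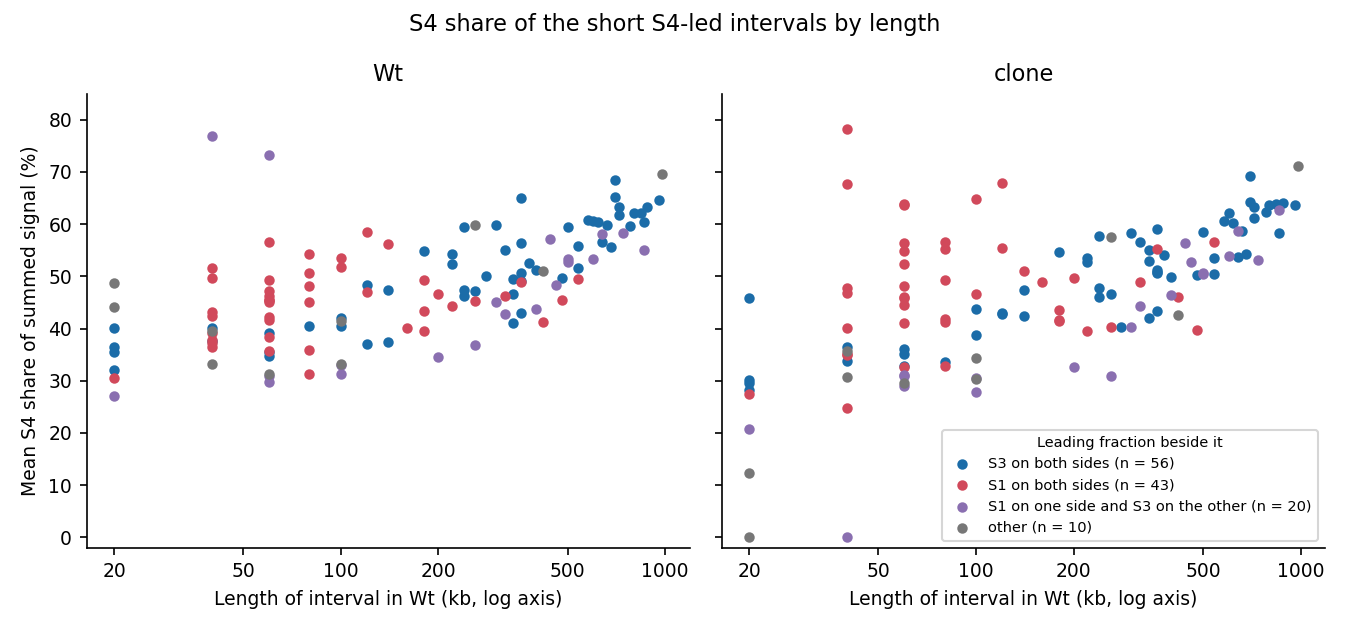
Mean S4 share of the summed scaled signal (%, vertical axis) of each of the 129 intervals against its length in Wt (kb, logarithmic horizontal axis), in Wt (left) and the clone (right), coloured by the leading fraction beside it. S3-framed points rise with length in both lines, while S1-framed points spread from 24.8% to 78.3% in the clone with no clear course.

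The fraction in second place differed between the kinds as well. S3 was second in 973 of the 1052 S3-framed windows. S1 was second in 213 of the 278 S1-framed windows, although S1 and S4 are the fractions farthest apart in S phase. Over all 1765 windows the median Wt shares of S1 to S4 were 8.98%, 8.73%, 22.8% and 53.6%, and the clone medians were 7.99%, 9.13%, 23.6% and 53.9%. The weighted-average timing that the authors deposited, on which late windows have low values, had a median of -0.834 in Wt and -0.812 in the clone over the short intervals, and of -0.980 and -0.948 over the long S4 runs. Its medians were -0.669 and -0.683 over S3-framed windows and -1.18 and -1.12 over S1-framed windows. It is missing for 23 windows of the short intervals, including all 13 of the interval chr1:75080001-75340000.

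In the clone, S4 led 1588 of the 1765 windows (90.0%, exact 95% binomial interval 88.5 to 91.3%, counting windows as independent, which neighbours are not). The other 177 (10.0%) were led by an earlier fraction, the only change open to a window led by S4. Of these 177, S3 led 119, S1 49 and S2 9. Among all windows that S2, S3 or S4 led in Wt, 5.5% had an earlier leader in the clone. That base includes the short intervals and the long S4 runs. Its windows led by S2 or S3 could also change to a later leader. The comparison of 10.0% with 5.5% therefore cannot show whether short intervals shifted to earlier fractions more than other windows. Over all 9787 windows the leader differed between the lines in 11.3%. The long S4 runs kept S4 as leader in 2328 of 2354 windows (98.9%). Other runs shorter than 1 Mb kept their leader in the clone in 84.3% of windows for S1, 81.1% for S2 and 85.4% for S3. Over the whole chromosome, the short S4 intervals thus kept theirs more often than these runs and less often than long S4 runs. Windows led by S2 or S3 could change in either direction, those led by S1 or S4 in only 1. S1 was kept in 1705 of the 2023 windows of its short runs. The changed S1 windows included 175 that S4 led in the clone, 161 of them between 146 and 166 Mb. In that stretch S1 led 256 windows in Wt, in runs of any length. On the rest of the chromosome S4 led 1137 of 1262 windows of short intervals (90.1%) in the clone. The higher figure than for S1 thus rests on that stretch and does not hold for the rest of the chromosome.

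The windows that kept S4 in the clone increased with interval length. S4 led 47 of 88 windows (53.4%) in intervals of 20 to 60 kb, 146 of 177 (82.5%) at 80 to 200 kb, 499 of 566 (88.2%) at 220 to 480 kb and 896 of 934 (95.9%) at 500 to 980 kb. The S4 lead was lost at a higher rate at the ends, although 95 of the 177 changed windows were inner ones. S4 led 168 of the 250 first and last windows (67.2%) and 1420 of the 1515 inner windows (93.7%) in the clone. In the long S4 runs the same figures were 40 of 56 (71.4%) and 2288 of 2298 (99.6%).

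How narrowly S4 led in Wt went with these figures too. Where the S4 share was less than 5 percentage points above the next fraction, S4 led 60.2% of the windows of short intervals in the clone. The figure was 76.8% for a lead of 5 to 10 points, 91.0% for 10 to 20 points and 97.8% above 20 points. Windows led by S1, S2 or S3 with the same margins kept their leader in 58.9%, 75.7%, 91.1% and 97.1%. In the long S4 runs S4 was kept in 74.6%, 96.3%, 97.6% and 100% of windows with these margins. At a matched margin, the leader of short intervals was thus kept about as often as that of windows led by the other fractions, and less often than S4 in the long S4 runs.

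The figures varied more with the margin in one kind of interval than in the other. In S3-framed intervals S4 led 54.9%, 82.5%, 95.0% and 99.7% of windows in the clone from the narrowest to the widest margin. In S1-framed intervals it led 84.3%, 85.7%, 88.6% and 87.7%, a range of 84.3% to 88.6%, and the difference between the kinds was not tested. Between 146 and 166 Mb, S4 led 233 of the 268 S1-framed windows (86.9%) in the clone and also 161 of the 256 windows (62.9%) that S1 had led in Wt. On the rest of the chromosome, S4 led 14 of 1935 windows (0.724%) that S1 had led in Wt. Quantile normalization of the clone to Wt lowered the figures within that stretch to 77.6% of S1-framed and 52.0% of S1-led windows.

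The S3-framed intervals kept S4 in 979 of 1052 windows (93.1%), and 72 of the 73 changed windows went to S3, the neighbouring fraction. By length this was 1 of 17 windows (5.88%) at 20 to 60 kb, 39 of 49 (79.6%), 299 of 320 (93.4%) and 640 of 666 (96.1%) at 500 to 980 kb. The S1-framed intervals kept S4 in 242 of 278 windows (87.1%), and all 36 changed windows went to S1, at the other end of S phase. Their figures by length were 39 of 50 (78.0%), 91 of 98 (92.9%), 87 of 103 (84.5%) and 25 of 27 (92.6%). The shortest valleys were nearly all led by S3 in the clone, while short S1-framed intervals mostly stayed S4-led. At 20 to 60 kb the median Wt lead of S4 over the next fraction was 1.36 percentage points in S3-framed windows and 10.6 points in S1-framed ones. Most S1-framed intervals also lay in the stretch where 62.9% of the windows that S1 led in Wt were S4-led in the clone. The part of either in this contrast was not tested.

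The borders of the valleys lay in similar places in both lines, and the borders between S1 and S4 did not. Of the 112 ends of S3-framed intervals, 72 (64.3%) had the end of an S4-led run within 20 kb in the clone, compared with 12 of 86 ends of S1-framed intervals. For 67 of these 86 ends the clone's S4-led run reached further out. The ends were set by Wt values, so a clone run that reaches further out cannot be told apart from that choice. Counting all borders of chromosome 1, including those of long S4 runs, 121 of 189 borders between S3 and S4 (64.0%) were found within 20 kb in the clone. This was 64.0% for S2 and S3 and 75.7% for S1 and S2, but 16 of 113 (14.2%) for S1 and S4. Without rescaling the deposited values this percentage was 24.0%, and with the clone quantile-normalized to Wt it was 22.1%. The clone had 202 borders between S3 and S4 and 67 between S1 and S4, 58 of the latter between 146 and 166 Mb. How often borders would meet within 20 kb from their number and placement alone was not computed, so these percentages have no common base.

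**Figure D4:**
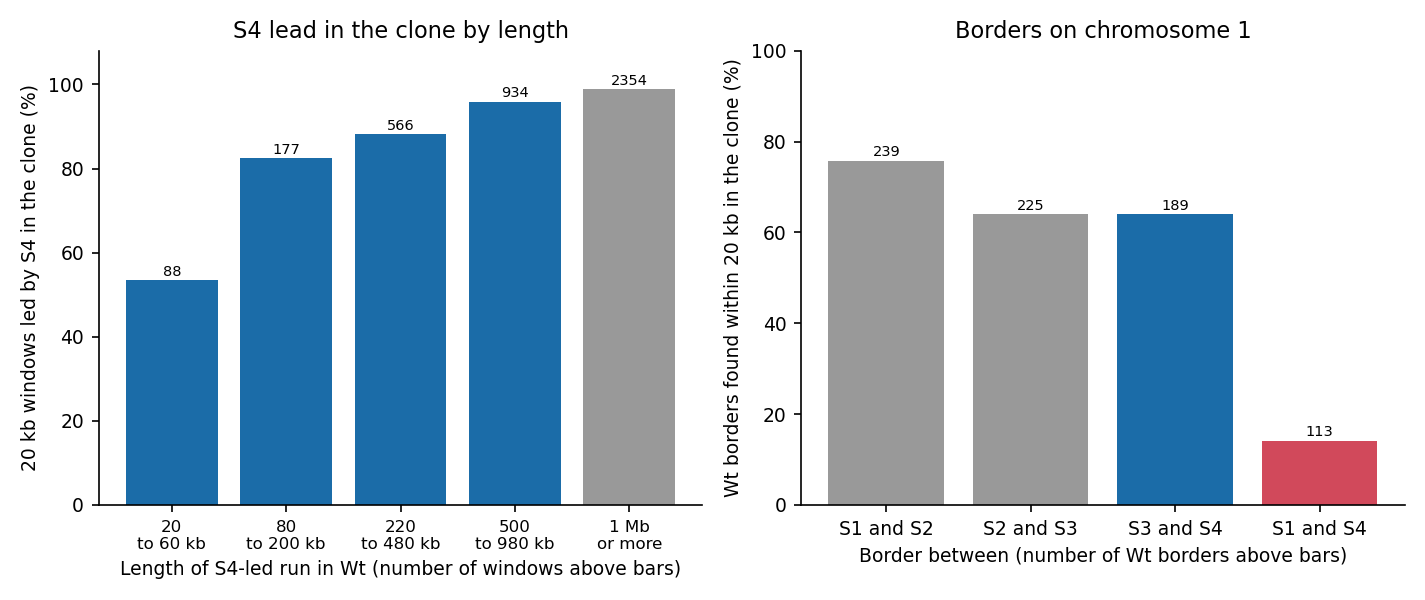
Left, percent of 20 kb windows led by S4 in the clone (vertical axis) for short intervals by length class and for S4-led runs of 1 Mb or more. Right, percent of Wt borders between leading fractions found within 20 kb in the clone. Numbers above bars are windows or borders. The S4 lead rises from 53.4% to 95.9% with length, and borders between S1 and S4 recur in 14.2% against 64.0% for S3 and S4.

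The stretch from 146 to 166 Mb, chosen for its many S1-framed intervals in Wt, was more uniformly S4-led in the clone than in Wt. S1 led 25.6% of its windows in Wt and 14.1% in the clone, and S4 led 55.4% and 67.1%. Borders between S1 and S4 numbered 90 in Wt and 58 in the clone, and 4 were at the same place. The densest group of intervals, 16 within chr1:150460001-152840000, shows this on a small scale. Of its 119 windows, S1 led 39 and S4 76 in Wt, and S1 led 16 and S4 101 in the clone, with the same leader in 68.9%. The stretch and this group were both picked by Wt values. Fewer borders between S1 and S4 in the clone therefore cannot be told apart from that choice. The direction of the exchange was the same under the other scalings tried. Over chromosome 1, 175 windows went from S1 to S4 and 50 from S4 to S1, compared with 223 and 68 without rescaling and 147 and 85 after quantile normalization. The summed signal of the stretch had a median of 2.23 in both lines, against 4.22 in Wt and 4.11 in the clone on the rest of the chromosome, and its part in these figures was not tested.

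The S4 share itself moved little on balance. The difference between the clone and Wt had a median of 0.038 percentage points over the windows of short intervals, with quartiles of -4.53 and 4.25, and a median of 0.051 over all windows and of 1.75 over the long S4 runs. The median over short intervals was negative under 10 of 14 alternative settings and between -0.446 and 0.088 points in the 13 given in points, so it has no settled sign. The S4 share was lower by 10 points or more in 127 windows of short intervals (7.20%, against 2.96% of all windows) and higher by 10 points or more in 140 (7.93%, against 7.57% of all windows). The lower quartile of the Wt S4 share over all windows was 7.89%, so many of them could not fall by 10 points. In the long S4 runs, 4.97% of windows were lower and 17.0% higher by 10 points or more. Large shifts were more frequent in the S1-framed windows, 14.7% lower and 23.0% higher, than in the S3-framed windows, 3.90% and 2.95%. Since members were required to have a high S4 share in Wt and not in the clone, a lower share in the clone cannot be told apart from this choice.

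Across intervals, the S4 shares of both lines were close in one kind and scattered in the other. Pearson's r and Spearman's rho between the Wt and clone shares were 0.94 and 0.95 over the 56 S3-framed intervals and 0.45 and 0.48 over the 43 S1-framed ones. The clone minus Wt difference had an SD over intervals of 3.44 points in the first kind and 10.1 points in the second. The kinds also differed in median length, 340 and 80 kb, and in median Wt summed signal over windows, 3.66 and 1.57. Their Wt shares ranged from 32.0% to 68.5% and from 30.4% to 58.6%. The part of these differences in the figures was not tested. Values of different intervals come from the same 8 libraries.

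**Figure D5:**
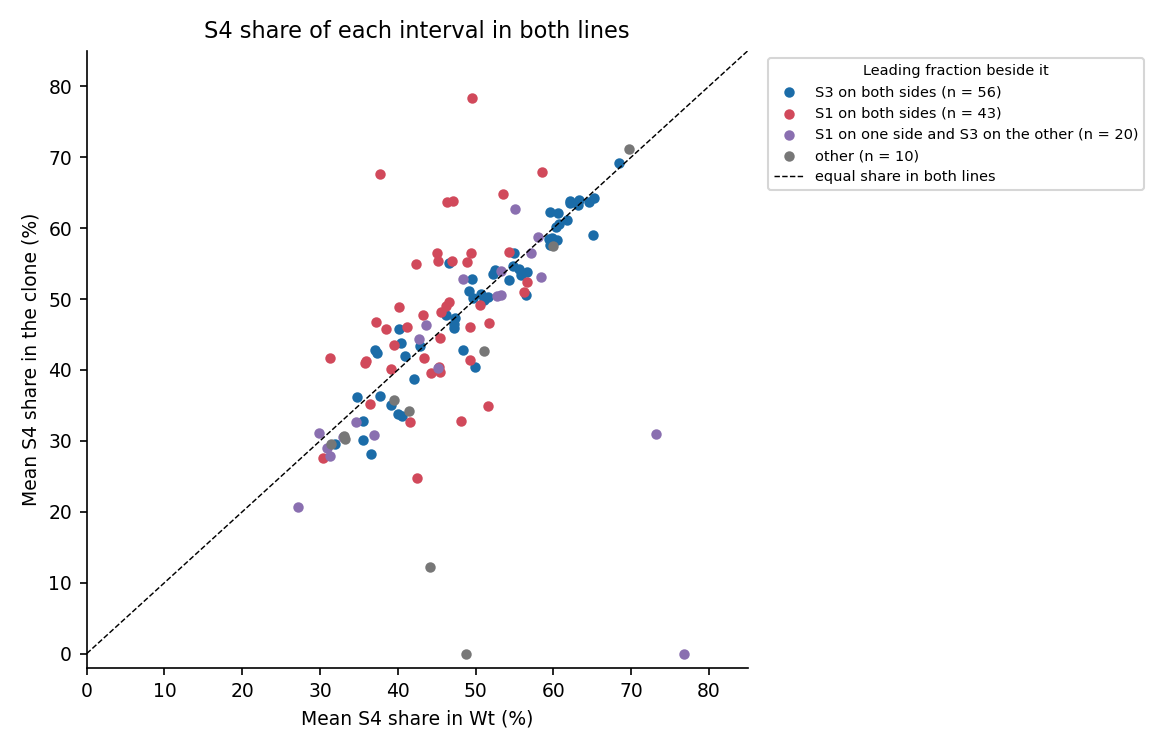
Mean S4 share (%) of each of the 129 intervals in the clone (vertical axis) against Wt (horizontal axis), coloured by the leading fraction beside the interval; the dashed line marks equal shares. S3-framed points follow the line, S1-framed points scatter about it, and the points far below it at Wt shares of 44.2% to 76.8% are 4 intervals near the end of the chromosome.

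Counted by interval, S4 led every window in the clone in 59 of the 129, some windows in 51 and none in 19. Of these 19, 17 were 60 kb or shorter and 7 were single windows. The largest was chr1:88060001-88320000, 260 kb with S1 on the left and S3 on the right, where S3 led 11 of 13 windows in the clone. Its shares of S1 to S4 were 12.6%, 20.5%, 30.0% and 36.9% in Wt and 14.3%, 20.7%, 34.1% and 30.9% in the clone, so S3 and S4 exchanged places with a narrow lead in each line. The other interval above 60 kb that was lost, chr1:102700001-102780000, was S3-framed with an S4 share of 40.5% in Wt and 33.5% in the clone and an S3 share of 38.9% and 39.7%. The 27 intervals of 500 kb or more all kept S4 in at least 86.0% of windows.

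Some short intervals were parts of longer S4-led runs in the clone. For 19 intervals, with 323 windows, the overlapping clone run was 1 Mb or longer. Applying the same rule to the clone gave 109 intervals with 1611 windows, of which 1284 were shared, 72.7% of the Wt list and 79.7% of the clone list. S4 led 84.7% of the clone list in Wt, compared with 90.0% of the Wt list in the clone, so the loss of the S4 lead was seen in both directions. The clone list had 67 S3-framed intervals and 25 S1-framed ones, and 24 of these 25 again lay between 146 and 166 Mb. The intervals with S1 on both sides were thus found in the same stretch in both lines, but mostly not with the same borders.

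The 5 longest intervals lay just inside the 1 Mb limit. The longest, chr1:73680001-74660000 (980 kb), had the highest S4 share in the clone among intervals of 60 kb or more. Its deposited means of S1 to S4 were -0.77, -0.90, -0.66 and 0.86 SD in Wt and -0.71, -0.93, -0.68 and 0.90 SD in the clone. The S4 share was 69.7% in Wt and 71.2% in the clone, S4 led 49 of 49 windows, and each library differed from its counterpart by less than 0.1 SD. The next, chr1:181320001-182280000 (960 kb), had S4 shares of 64.6% and 63.7%, and chr1:134080001-134960000 (880 kb) had 63.3% and 64.0%. The pair of 860 kb intervals differed more. The S4 share of chr1:16440001-17300000, with S1 on its right, was 55.1% in Wt and 62.7% in the clone, where it was part of a run of 2220 kb, and that of chr1:172660001-173520000 was 60.5% and 58.3%. Just outside the limit, chr1:161060001-162080000 (1020 kb) had 48.4% and 49.4%, and chr1:38460001-39500000 (1040 kb) had 65.5% and 61.3%. The S4 shares on either side of the limit overlapped.

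The highest and lowest S4 shares of the clone fell on different kinds of interval. After the longest interval, the highest among those of 60 kb or more was 69.1% in chr1:52460001-53160000 (700 kb, S3-framed), from 68.5% in Wt, with deposited S4 means of 1.99 SD in Wt and 2.05 SD in the clone. The next was 67.9% in chr1:149800001-149920000 (120 kb, S1-framed), from 58.6% in Wt, but there the deposited S4 means were -0.64 and -0.43 SD and the summed signal was 0.992 and 0.995. A similar S4 share thus came with S4 well above its chromosome mean in the first and below it in the second. The S1-framed interval chr1:147000001-147100000 followed with 53.5% in Wt and 64.8% in the clone, and the S3-framed chr1:130840001-131540000 with 65.2% and 64.3%. The 5 lowest, between 27.9% and 30.5% in the clone, were 60 to 100 kb long: chr1:133820001-133920000, chr1:142440001-142500000, chr1:103180001-103240000, chr1:94900001-95000000 and chr1:95100001-95200000. They had a different leader on each side, summed signals of 3.98 to 5.72 in the clone, and nearly equal shares of several fractions, such as 21.9%, 22.9%, 27.3% and 27.9% for S1 to S4 in the first of these.

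The share-based index weights S1 to S4 by 4, 3, 2 and 1, so that a higher value means more signal in earlier fractions. It did not always give the same order as the weighted average. Over S1-framed windows the Wt index had a median of 2.27, as it did over all windows. The weighted averages, which are scaled within each stretch, had medians of -1.18 and 0.006. Among intervals of 60 kb or more, the 5 largest rises and 5 largest falls of the index from Wt to the clone all fell on intervals with a Wt summed signal below 1.7. The largest rise, from 1.64 to 2.85, was in chr1:195700001-195760000 near the end of the chromosome. Its summed signal rose from 1.62 to 7.42, its S1 share was 18.8% and 57.1%, and its S4 share 73.1% and 30.9%. The next rises were in chr1:158160001-158240000 (1.99 to 2.65), chr1:158880001-158940000 (2.30 to 2.73), chr1:159100001-159200000 (2.29 to 2.58) and chr1:149980001-150040000 (2.27 to 2.55). In these 4 the S1 share was higher in the clone, for example 48.6% from 29.9% in chr1:158880001-158940000, where S1 led all 3 windows.

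The falls, meaning a lower index in the clone, were in S1-framed intervals without exception. They were chr1:147000001-147100000 (2.26 to 1.84), chr1:23920001-23980000 (2.39 to 2.00), chr1:149800001-149920000 (2.08 to 1.73), chr1:151260001-151320000 (2.29 to 1.95) and chr1:151460001-151520000 (2.29 to 2.06). Each became part of an S4-led run of between 820 and 1900 kb in the clone. The deposited weighted average did not follow the index in all of them. It was higher in the clone, meaning earlier, in chr1:147000001-147100000 (-1.22 to -1.11), chr1:23920001-23980000 (-1.42 to -1.36) and chr1:149800001-149920000 (-1.21 to -1.16). It was lower in chr1:151260001-151320000 (-1.15 to -1.23) and chr1:151460001-151520000 (-1.15 to -1.25). Apart from chr1:195700001-195760000 and chr1:23920001-23980000, the intervals with the largest rises and falls all lay between 146 and 166 Mb.

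At the end of the chromosome, 3 single windows or pairs had a far lower S4 share in the clone than in Wt. The S4 share went from 76.8% in Wt to 0% in the clone in chr1:195180001-195220000, from 48.8% to 0% in chr1:195460001-195480000, and from 44.2% to 12.3% in chr1:195520001-195540000. They were picked for this after their values were seen. The deposited S4 means of the first were -0.17 SD in Wt and -3.96 SD in the clone, and those of S3 were -3.24 and -0.76 SD. What part the chromosome end plays in these values was not tested.

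The target region of the insertion, chr1:71981290-73532377, held no short interval, and S4 led none of its windows in Wt. The nearest short interval downstream was the longest one, chr1:73680001-74660000. It began 147.6 kb beyond the region and 1114 kb beyond the last insertion position given in the series design. S4 led every window of it in the clone, as described above. The nearest upstream, chr1:69920001-70280000 (360 kb, S3-framed), ended 1701 kb before the region. Its shares of S1 to S4 were 6.31%, 12.6%, 32.0% and 49.1% in Wt and 6.70%, 11.6%, 30.5% and 51.1% in the clone, where S4 led 17 of 18 windows within a run of 1480 kb. Neither neighbour had a lower S4 share in the modified line.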

How the data were processed

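Per the labels' protocols, nascent strands were labelled with BrdU for 1 h, pulled down with an antibody and passed through whole-genome amplification. The submitters' processing notes name Bowtie2 and the build galGal5. The sources used here give neither the aligner's version nor the steps of normalization and smoothing. The authors deposited scores in SD units, 1 value per kb (196153 positions), normalized and centred per the file headers, and weighted averages with mean 0 and SD 1 within each of 16 stretches. The weighted average headed cl6 was taken as the clone's.

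From these scores, scaled profiles, 20 kb windows with at least 10 values, leaders, runs, shares and the index were computed (Python 3.11.15, numpy 2.4.6, pandas 2.3.3, scipy 1.17.1). A total of 21 windows at 0 in all 4 Wt fractions and 1 with too few values have no leader. The code was tested on simulated profiles. Named intervals were the 5 longest, those beside the 1 Mb limit, the 5 highest and lowest in clone S4 share, the 5 largest index changes in each direction (both for 60 kb or more) and those nearest the target region. The intervals, lists and comparisons were chosen with earlier results of these data known, and the split by framing, the length classes, the margins and the stretch from 146 to 166 Mb (the 20 Mb, in steps of 2 Mb, with the most S1-framed intervals) after their values were seen. No galGal5 sequence or annotation was used, so no gene is named. The asynchronous and Hi-C samples were not analysed here (5 of 13).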

Additional observations from a re-analysis of the deposited data

How the results depend on the processing

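Of 120 values recomputed for 13 results under 14 alternative settings, 100 stayed within their limit and 20 moved beyond it. Of the 120, 53 were added after the data had been seen. The limit was the exact 95% interval of a percent, 1.5-fold for a count and the SD over windows for a median. The SD is wide beside the median difference in S4 share, so staying within it says little about that median. The interval of a percent counts windows, intervals or ends as independent, which neighbours are not. The median difference in S4 share, 0.038 percentage points as reported, had the opposite sign under 10 of its 14 settings. Its range was -0.446 to 0.088 points in the 13 given in points. The clone's median weighted average stayed negative under every setting tried for it. The other results are counts and percents, which cannot change sign. No paired analysis was possible because there was 1 library for each fraction and line. With 10 kb and 50 kb windows, the intervals held 3552 and 641 windows, the count shared with the clone list was 2672 and 432, and 36.0% and 85.7% of S3-framed ends lay within 1 window in the clone, which the window size itself changes. S1-framed ends reached 25% with 50 kb windows, 28.1% without rescaling and 27.9% with the clone quantile-normalized to Wt. Under the latter 2 settings, S4 led 79.9% and 78.4% of S1-framed windows in the clone, and the cause was not tested. With a limit of 500 kb, 831 windows remained, 408 of them shared, and S4 led 83.3% of all and 87.8% of S3-framed windows in the clone. S4 led 93.7% without the first and last window of each interval. Among windows led by at least 5 percentage points it led 93.9%, and 97.2% of S3-framed ones. The percent of intervals with S4 in no clone window was 14.7%, 5.56% at 60 kb or more, and 7.34% with the 5-point margin. Unknown depth and 1 library per fraction limit every value.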
